A study of Caenorhabditis elegans with 12 samples.

Results

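Astacins are secreted or membrane-bound zinc metalloproteases of the metzincin clan, and nematodes carry an unusually large set of them, named nas for nematode astacin. The founding member is a digestive enzyme of crayfish, and in Caenorhabditis elegans the family is known for hatching, for shedding the cuticle at each molt, for forming the grinder of the pharynx and for processing collagen precursors. An astacin is made as a proenzyme whose prodomain is removed before the catalytic domain becomes active, and most members carry further domains behind the catalytic one. The genes described here are the protein-coding genes of the genome build WBcel235 whose WormBase symbol begins with nas-. They are 37 gene identifiers under 36 symbols, of 46748 genes in the deposited count table, and the rule takes them by their name and uses no measured value, although the family was picked with earlier results of these data known.

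RNA of whole hermaphrodites of the wild-type strain N2 was sequenced as 12 libraries, with 3 for each of 4 groups. The groups were worms of 15 days of age that had received 100 nM rotenone for 24 h beginning at the L4 larval stage, worms of 15 days in 0.1% DMSO, worms of 5 days of age with the same rotenone exposure, and worms of 5 days in 0.1% DMSO. Rotenone inhibits complex I of the mitochondrial respiratory chain, and DMSO is the solvent. The labels do not give the timing of DMSO, whether rotenone was given in DMSO, the event from which age was counted, how offspring were kept apart, or whether replicates were separate cultures, so the p-values measure only the spread between these libraries, which may be technical. Total counts were 41171323 to 52769067 in rotenone and 34307432 to 48687629 in DMSO at 15 days, and 45612486 to 49375222 in rotenone and 43507026 to 53716605 in DMSO at 5 days. The marker genes looked up for pharynx, epidermis, intestine, muscle, neurons, germ line and embryo were all detected in each group, apart from bus-8, which was not analysed here.

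Of the 37 genes, 36 had at least 1 count and 31 passed the filter on low counts, as did 17166 genes in all. The 6 others were barely detected. They are both gene identifiers that carry the symbol nas-2, with 0 counts in all libraries for one and 1 count in 1 library for the other, and nas-16, nas-17, nas-18 and nas-19, with 11 to 25 counts summed over the 12 libraries. The nas-2 identifiers have equal exon lengths of 819 bases and equal protein lengths of 272 residues, and how the counting treated reads that match several places is not given in the sources used here, so a count near 0 does not show that nas-2 RNA was low. For the other genes, a count of 0 in a library allows a level of up to 3 counts, which is 0.0558 to 0.0874 CPM in these libraries (CPM, the count relative to the library total and scaled with TMM factors), for counting error only. The nas- genes lie on all 6 chromosomes, with 14 on V, 8 on X, 5 on II, 4 on IV and 3 each on I and III. On chromosome V, nas-16 to nas-22 stand within 85.7 kb (11392320 to 11478007). The 4 genes at one end of this stretch, nas-16 to nas-19, gave 0 to 14 counts together in a library. The 3 genes at the other end, nas-20 to nas-22, gave 393 to 2693 counts together in a library.

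The protein length in the annotation ran from 240 to 928 residues, and it differed between the published classes of the family, which are told apart by their domains. The class of nas-1 to nas-5, which holds little beyond the catalytic domain, has a median of 282 residues. The class of nas-6 to nas-15, whose members carry ShK-type domains, has a median of 476.5 residues in 10 genes, all of which were tested. The class of nas-16 to nas-30, with EGF-like and CUB domains, has 14 genes, of which 10 were tested. The pair nas-31 and nas-32 has 611 and 653 residues. The class of nas-33 to nas-38, which adds a thrombospondin type domain, has 4 genes under a nas- symbol, and nas-39, the relative of tolloid and BMP-1, is the longest with 928 residues.

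**Figure D1:**
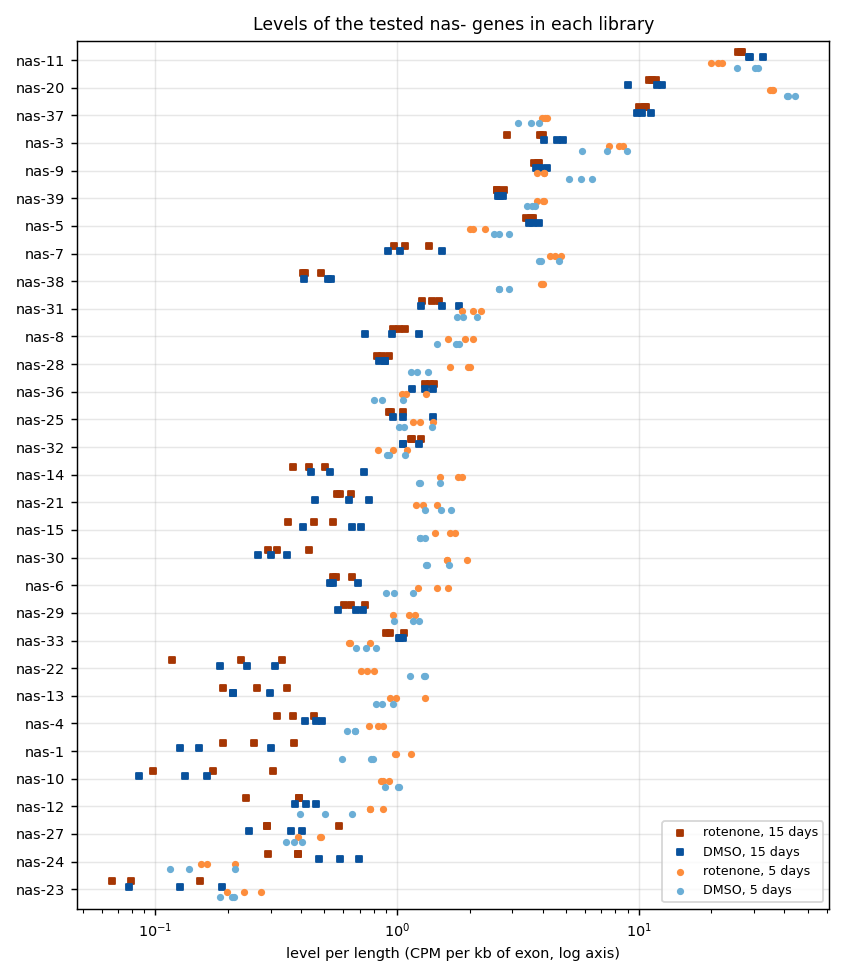
Level of each tested nas- gene in CPM per kb of exon (log axis), shown as a point for each of the 3 libraries in each of the 4 groups. nas-11 and nas-20 lie above the other genes at 5 days, nas-20 and nas-38 are far lower at 15 days, and nas-37 is higher at 15 days.

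Per kb of exon, nas-11 and nas-20 had by far the highest RNA levels of the family. Over the 12 libraries the mean level was 26.6 CPM per kb for nas-11, 25.1 for nas-20, 7.13 for nas-37, 5.91 for nas-3 and 4.38 for nas-9. The median of the 31 tested genes was 1.01 CPM per kb, and the lowest had 0.167. The order of the leading pair depended on age. At 15 days nas-11 stood at 26.4 ± 0.531 CPM per kb after rotenone and 30 ± 2.24 in DMSO, above nas-20 with 11.4 ± 0.425 and 11.2 ± 1.87 (SD, n = 3 each). At 5 days nas-20 led, with 35.4 ± 0.527 CPM per kb after rotenone and 42.3 ± 1.77 in DMSO, while nas-11 had 21.1 ± 1.13 and 29.0 ± 3.06. The order of the pair was the same in every library of an age. Next in order, nas-37 at 15 days had 10.5 CPM per kb in both treatments, which lay within the spread of nas-20 in DMSO and below nas-20 after rotenone. The summed level of all nas- genes was 138.7 ± 1.451 CPM after rotenone and 147.8 ± 6.333 CPM in DMSO at 15 days, and 183.6 ± 3.954 CPM after rotenone and 197.3 ± 10.11 CPM in DMSO at 5 days. Of this sum, nas-37 made up 19.2% after rotenone and 18% in DMSO at 15 days, and 5.64% and 4.56% at 5 days.

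The first comparison asks how the family differed between rotenone and DMSO worms at 5 days of age. Of the 31 tested genes, 11 were higher and 5 were lower after rotenone at an adjusted p under 0.05. That is 51.6% of them, beside 44.7% of all genes tested; 35.5% were higher, beside 21.3% of all genes, and 16.1% were lower, beside 23.3%. The changes were small, between -0.72 and 0.63 on the log2 scale among the called genes. The median log2 difference was 0.15 over the tested nas- genes and 0.03 over all genes. Scaling to library totals instead of TMM factors moved the median of all genes to 0.15 and that of the nas- genes to 0.27. With library totals 13 were higher and 3 lower, 41.9% and 9.68% of the family beside 37.9% and 10.3% of all genes. DESeq2's size factors (RLE) gave 7 higher and 5 lower, 22.6% and 16.1% beside 18.9% and 26.2% of all genes. The excess of higher genes over all genes was thus smaller under both scalings. With any 1 of the 6 libraries of 5 days left out, 5 to 7 genes were called higher and 5 lower. Under every alternative tried, nas-38, nas-28, nas-9, nas-11 and nas-22 kept their call.

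**Figure D2:**
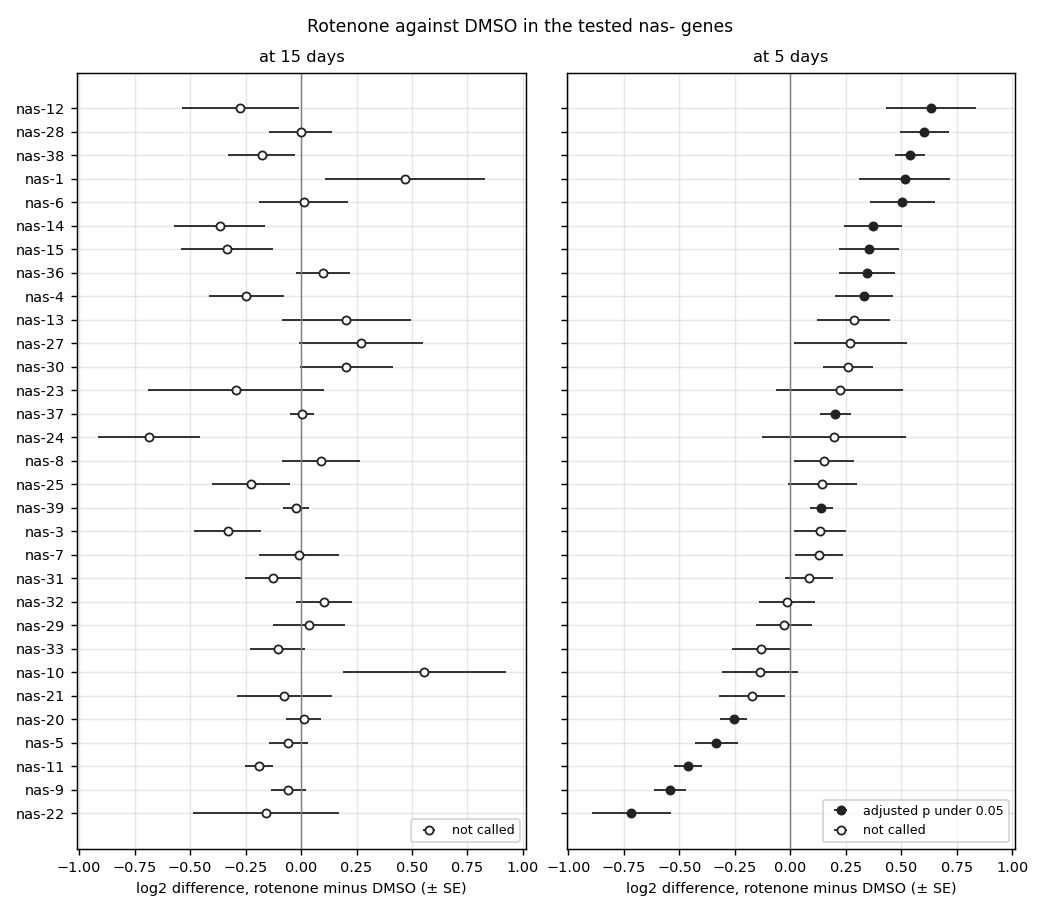
log2 difference of rotenone minus DMSO with its standard error for each tested nas- gene, at 15 days and at 5 days. Filled points passed an adjusted p of 0.05, which 16 genes did at 5 days and none at 15 days.

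Among the called genes that were higher, nas-38 had the smallest p. This gene of the thrombospondin class, linked to the quiescence that accompanies the molt, lies on chromosome X (558157 to 563708). It had 9.21, 9.13 and 9.03 CPM in the rotenone worms, against 6.08, 6.69 and 6.04 CPM in the DMSO worms of 5 days. The 3 rotenone libraries lay close together and above every DMSO library, a log2 difference of 0.54 ± 0.07 (SE; adjusted p = 4.28e-06). nas-28, of the class with EGF-like and CUB domains (chromosome III, 6180962 to 6183218), had 3.22, 3.15 and 2.67 CPM after rotenone and 1.94, 2.16 and 1.84 CPM in DMSO. Again the groups did not overlap, and nas-28 was 1.52-fold higher (0.60 ± 0.11, adjusted p = 0.000195).

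The genes of the molt were higher by less. nas-37, a protease needed to shed the old cuticle (chromosome X, 9944844 to 9949063), had 10.6, 10.4 and 10.1 CPM after rotenone and 9.78, 9.16 and 8.09 CPM in DMSO. Its groups did not overlap either, with a log2 difference of 0.20 ± 0.07 (adjusted p = 0.0207). nas-36, which also acts in molting (chromosome I, 7527224 to 7531715), had 2.38, 2.99 and 2.48 CPM after rotenone and 2.41, 1.96 and 1.82 CPM in DMSO. Here 1 rotenone library fell below the highest DMSO library, and the log2 difference was 0.34 ± 0.13 (adjusted p = 0.0328). nas-33, the remaining gene of the class under a nas- symbol, lies on chromosome X (6451698 to 6455257). It had 1.48 ± 0.174 CPM after rotenone and 1.62 ± 0.149 CPM in DMSO, and was not called (adjusted p = 0.447). nas-39 (chromosome X, 16456927 to 16471333) differed least of the called genes, with 13.7 ± 0.502 CPM after rotenone and 12.5 ± 0.494 CPM in DMSO (0.14 ± 0.05, adjusted p = 0.0349). It shares 276 bases of exon on the same strand with F38E9.1, which had 17386 counts in all beside 6196 for nas-39 and a log2 difference of -0.07. The call of nas-37 was lost without DMSO library 3 (0.14, adjusted p = 0.123) or without rotenone library 1 (0.19, adjusted p = 0.0627), and under DESeq2 (adjusted p = 0.068). Leaving out DMSO library 2, DMSO library 3 or rotenone library 2 ended the call of nas-36 (adjusted p = 0.103, 0.133 and 0.169), as did DESeq2 (0.117). For nas-39 the libraries whose removal ended the call were DMSO 1 and 2 and rotenone 1 and 3 (adjusted p = 0.052, 0.156, 0.105 and 0.101), and DESeq2 gave 0.261 and RLE 0.0823.

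In the ShK class, 4 of 10 genes were higher and 2 were lower, 40% and 20% beside 21.3% and 23.3% of all genes. DESeq2 called none of the 4 higher genes. nas-6, which like nas-7 is needed to form the grinder, the cuticular mill of the pharynx (chromosome IV, 17486842 to 17490779), had 2.14, 2.39 and 1.78 CPM after rotenone and 1.71, 1.42 and 1.32 CPM in DMSO. Each rotenone library stood above each DMSO library (0.50 ± 0.15, adjusted p = 0.00839), and the call was lost without rotenone library 2 (0.41, adjusted p = 0.0541) and under DESeq2 (adjusted p = 0.0591). nas-7 (chromosome II, 7400545 to 7402725) had 6.45, 6.06 and 5.79 CPM after rotenone and 6.29, 5.29 and 5.21 CPM in DMSO; the groups overlapped and it was not called (0.13 ± 0.11, adjusted p = 0.357). Pharynx markers differed in the same comparison. Of the 6 muscle markers of the pharynx, 5 were higher and none lower, with a summed level of 469.9 to 489.6 CPM after rotenone and 389.4 to 407.0 CPM in DMSO. Of the 8 gland markers, 4 were higher and none lower (59.29 to 62.88 CPM after rotenone, 53.29 to 55.28 CPM in DMSO). Of all genes, 21.3% were higher and 23.3% lower. Higher markers were not particular to the pharynx. They were 3 of 6 in neurons and 3 of 5 in embryo, with 0 lower in each. Body wall muscle had 3 higher and 2 lower of 5, epidermis 3 and 2 of 7, and intestine 1 and 2 of 8. All 5 germ line markers were lower. The part of the pharynx markers in the value of nas-6 was not tested. In RNA of whole worms, fewer cells of a type and less RNA per cell cannot be told apart.

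The other called genes that were higher had lower levels or larger errors. nas-12 (chromosome IV, 10224023 to 10226387) had the largest rise of the family, a log2 difference of 0.63 ± 0.20 (adjusted p = 0.0158). It had 0.973, 1.10 and 0.976 CPM after rotenone and 0.632, 0.817 and 0.498 CPM in DMSO. It lost its call without DMSO library 3 (adjusted p = 0.0883), without rotenone library 2 (0.0571) and under DESeq2 (0.091), and it shares 60 bases of exon with F01G10.6 on the other strand, which was higher too (0.42, adjusted p = 0.0322). The labels name the TruSeq RNA v2 kit, whose usual protocol does not mark the strand, and the strand setting of the counting is not given in the sources used here, so values of genes with overlapping exons are uncertain. nas-14 (chromosome IV, 13170541 to 13174144) and nas-15 (chromosome X, 777721 to 780533) were 1.29-fold and 1.28-fold higher. nas-1 (chromosome III, 13405804 to 13409292) and nas-4 (chromosome III, 6411578 to 6415656), of the class with the shortest proteins, were 1.43-fold and 1.26-fold higher, with adjusted p = 0.0468 and 0.0458. Without 1 library, the call was lost for nas-1 whichever of the 6 was left out, and for nas-4 in every case except rotenone library 3. For nas-15 every removal except that of rotenone library 1 ended the call, and for nas-14 the removal of DMSO library 1 or 2 or of rotenone library 1 or 3. DESeq2 called none of these 4 (adjusted p = 0.112 for nas-14, 0.143 for nas-15, 0.19 for nas-1 and 0.234 for nas-4), and RLE called nas-14 alone. nas-4 shares 437 bases, 18.8% of its exons, with C05D11.5 on the same strand.

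The 5 genes that were lower include the leading pair. nas-11 (chromosome X, 6713577 to 6716357) had 39.3, 37.7 and 35.3 CPM in the rotenone worms, against 53.9, 55.4 and 45.3 CPM in the DMSO worms. All rotenone libraries lay below all DMSO libraries, a log2 difference of -0.46 ± 0.06 (adjusted p = 8.79e-06). It shares 163 bases of exon with smf-2 on the other strand, which had 113 counts in all beside 25675 for nas-11. nas-20 (chromosome V, 11470925 to 11472309) had 42.9, 41.6 and 42.5 CPM after rotenone and 53.0, 49.3 and 49.4 CPM in DMSO. The groups were apart here too (-0.26 ± 0.06, adjusted p = 0.00175), but with scaling to library totals the difference was -0.14 and was not called (adjusted p = 0.0784). Together nas-11 and nas-20 made up 43.4% ± 0.349 of the summed nas- level after rotenone and 51.7% ± 0.768 in DMSO (SD, n = 3 each).

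nas-9, of the ShK class (chromosome V, 4836027 to 4840013), had 7.33, 7.33 and 6.85 CPM after rotenone and 10.4, 11.5 and 9.33 CPM in DMSO. Its log2 difference was -0.54 ± 0.07 (adjusted p = 5.53e-06), and the groups did not overlap. nas-22, a neighbour of nas-20 (chromosome V, 11474699 to 11478007), had 0.954, 1.02 and 0.897 CPM after rotenone and 1.43, 1.63 and 1.64 CPM in DMSO. That is a 1.64-fold lower level and the largest fall of the family (-0.72 ± 0.18, adjusted p = 0.00284). The gene between them, nas-21 (chromosome V, 11472564 to 11473899), had 1.52 ± 0.161 CPM after rotenone and 1.72 ± 0.212 CPM in DMSO and was not called (adjusted p = 0.373). nas-5 (chromosome I, 9886189 to 9888224) had 2.69, 2.35 and 2.4 CPM after rotenone and 3.39, 3.07 and 2.94 CPM in DMSO, with no overlap (-0.33 ± 0.10, adjusted p = 0.00828), and lost its call with library totals (-0.21, adjusted p = 0.0822).

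The 15 genes that were not called at 5 days had log2 differences of -0.17 to 0.29. Among them nas-3 (chromosome V, 9478163 to 9479601) had 9.31, 9.65 and 8.41 CPM after rotenone and 8.31, 10 and 6.49 CPM in DMSO. The DMSO libraries spread on both sides of the rotenone libraries (0.13 ± 0.12, adjusted p = 0.375), and without DMSO library 2 the difference was 0.30 and called (adjusted p = 0.0409). nas-30 (chromosome I, 938483 to 947710) had 5.74, 4.73 and 4.74 CPM after rotenone and 3.93, 4.84 and 3.89 CPM in DMSO. Its groups overlapped (0.26 ± 0.11, adjusted p = 0.0672), and it was called in 4 of 13 alternatives: without DMSO library 2 (0.37, adjusted p = 0.0211), with library totals (0.38, 0.00801), without the filter (0.26, 0.0353) and with only the libraries compared (0.26, 0.0482).

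**Figure D3:**
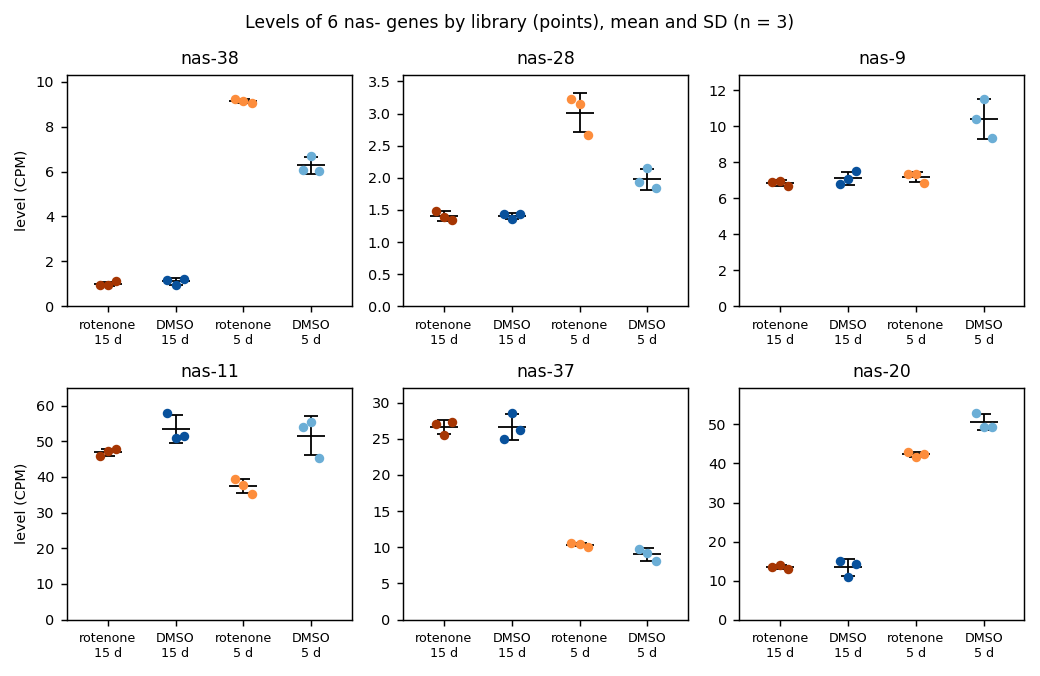
CPM of 6 nas- genes in each of the 12 libraries (points) with the group mean and SD (bars). At 5 days the rotenone libraries lie above the DMSO libraries for nas-38, nas-28 and nas-37 and below them for nas-9, nas-11 and nas-20, while at 15 days the groups overlap for all 6 except nas-11.

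At 15 days of age no nas- gene differed between rotenone and DMSO worms by edgeR's test, where 0.408% of all genes tested were called, 0.28% higher and 0.128% lower. DESeq2 likewise called none, among only 6 nas- genes that it tested here, and 3 genes had an unadjusted p under 0.05 in edgeR's test. The log2 differences ran from -0.69 to 0.55 with a median of -0.06. nas-11 had 45.8, 47.2 and 47.7 CPM after rotenone and 58.0, 50.8 and 51.4 CPM in DMSO. These libraries did not overlap (-0.19 ± 0.06, adjusted p = 0.397), and without the filter on low counts nas-11 was called (adjusted p = 0.00455). nas-38 had 0.955, 0.942 and 1.11 CPM after rotenone and 1.18, 0.943 and 1.22 CPM in DMSO, and the libraries overlapped (adjusted p = 0.876). nas-9 stood at 6.86 ± 0.177 CPM after rotenone and 7.13 ± 0.358 CPM in DMSO, and nas-37 at 26.6 ± 0.945 CPM and 26.6 ± 1.82 CPM.

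The difference between the ages in the rotenone response was tested as an interaction, in which the log2 difference of rotenone minus DMSO at 5 days is subtracted from the one at 15 days. It was called in 6 of 31 nas- genes, 19.4% beside 25.7% of all genes. Of all genes 15.4% were called with a positive value and 10.3% with a negative one. The 2 nas- genes called with a positive value, nas-9 (0.48 ± 0.11, adjusted p = 0.00257) and nas-11 (0.27 ± 0.09, adjusted p = 0.0309), are those of the ShK class that were lower at 5 days. The 4 called with a negative value, nas-38 (-0.72 ± 0.17, adjusted p = 0.00369), nas-28 (-0.60 ± 0.18, adjusted p = 0.0189), nas-14 (-0.74 ± 0.24, adjusted p = 0.0313) and nas-15 (-0.69 ± 0.25, adjusted p = 0.0479), were all higher at 5 days. With scaling to library totals 1 gene was called positive and 9 negative, with RLE 3 and 3, and with DESeq2 3 and 1. The counts with library totals are 3.23% and 29% of the family, near the 5.47% and 25% of all genes under that scaling. nas-9 and nas-38 kept this call under every alternative.

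The second question is how the family differed between worms of 15 and of 5 days. In DMSO, 5 of 31 nas- genes were higher at 15 days and 20 were lower, 80.6% of the family beside 76.2% of all genes. Lower genes were 64.5% of the family and 40.9% of all genes, and higher ones 16.1% and 35.2%. The median log2 difference was -0.65 over the nas- genes and -0.06 over all genes. After rotenone 6 were higher and 22 lower, 90.3% beside 79.5%, with 71% lower beside 42.9% and 19.4% higher beside 36.6%, and a median of -1.09 beside -0.09. These counts moved by at most 1 gene in each direction under the other scalings. Between the ages, 4 genes were higher and 19 lower in both treatments, and none moved in opposite directions. By class, 8 of the 10 genes of the ShK class fell in each treatment, 80% beside 40.9% of all genes in DMSO and 42.9% after rotenone. Of the 10 tested genes of nas-16 to nas-30, 6 fell in DMSO and 8 after rotenone. In the class of nas-1 to nas-5, 3 of 4 tested genes fell in each treatment. Of the 4 genes of the thrombospondin class under a nas- symbol, 3 were higher and 1 lower in DMSO. After rotenone 2 of these were higher and 1 lower.

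**Figure D4:**
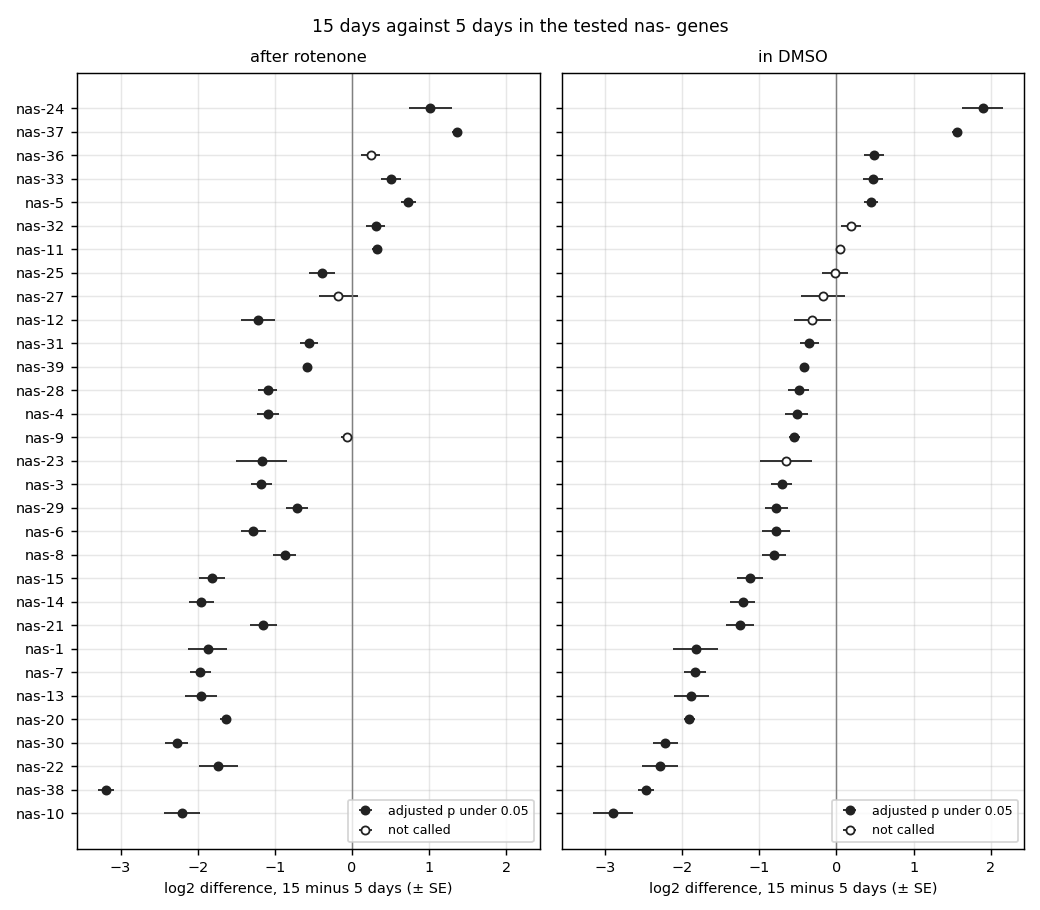
log2 difference of 15 minus 5 days with its standard error for each tested nas- gene, after rotenone and in DMSO. Filled points passed an adjusted p of 0.05, and most lie left of 0 in both treatments while nas-37 and nas-24 lie furthest to the right.

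nas-37 rose most among the genes with a mean of at least 1 CPM. In DMSO it had 25, 28.6 and 26.2 CPM at 15 days, against 9.78, 9.16 and 8.09 CPM at 5 days. Every library of 15 days stood above every library of 5 days, a 2.95-fold higher level (1.56 ± 0.06, adjusted p = 1.6e-14). After rotenone it had 27, 25.5 and 27.3 CPM at 15 days and 10.6, 10.4 and 10.1 CPM at 5 days, which is 2.56-fold higher (adjusted p = 6.09e-14). nas-37 shares 32 bases of exon with C17G1.5 on the other strand, which differed by 0.22 in DMSO. Its partner in the molt, nas-36, rose less, with 2.95, 3.18 and 2.59 CPM at 15 days and 2.41, 1.96 and 1.82 CPM at 5 days in DMSO. That difference was called (0.49 ± 0.13, adjusted p = 0.00209), whereas after rotenone, with 3.09 ± 0.13 CPM at 15 days and 2.62 ± 0.325 CPM at 5 days, it was not (0.24 ± 0.12, adjusted p = 0.0709). The other rises with age in DMSO were nas-33 (0.47 ± 0.13, adjusted p = 0.00238) and nas-5 (0.45 ± 0.09, adjusted p = 0.000174). nas-24, named after its values were seen, was higher by 1.89 ± 0.27 at levels of 0.89 ± 0.166 CPM at 15 days and 0.237 ± 0.0781 CPM at 5 days.

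The gene of the same class linked to quiescence moved the other way. nas-38 in DMSO had 1.18, 0.943 and 1.22 CPM at 15 days, against 6.08, 6.69 and 6.04 CPM at 5 days, a 5.54-fold lower level (-2.47 ± 0.10, adjusted p = 3.75e-14). After rotenone it had 0.955, 0.942 and 1.11 CPM at 15 days and 9.21, 9.13 and 9.03 CPM at 5 days, a 9.11-fold lower level (-3.19 ± 0.10, adjusted p = 3.04e-16). The ranges of the ages were far apart in both treatments.

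nas-20 fell to 15.0, 10.8 and 14.3 CPM at 15 days in DMSO, against 53.0, 49.3 and 49.4 CPM at 5 days (-1.91 ± 0.07, adjusted p = 3.88e-15). After rotenone it had 13.6, 14.1 and 13.1 CPM at 15 days and 42.9, 41.6 and 42.5 CPM at 5 days (-1.64 ± 0.07, adjusted p = 3.18e-14). Its neighbours on chromosome V fell too. In DMSO the difference was -1.25 ± 0.18 for nas-21 and -2.29 ± 0.23 for nas-22, and nas-22 had 0.311 ± 0.0797 CPM at 15 days and 1.57 ± 0.122 CPM at 5 days. nas-11, the other abundant gene, was not lower at 15 days. It had 53.4 ± 3.99 CPM at 15 days and 51.6 ± 5.43 CPM at 5 days in DMSO (adjusted p = 0.471), and 46.9 ± 0.944 CPM at 15 days and 37.5 ± 2.01 CPM at 5 days after rotenone, where it was 1.25-fold higher (adjusted p = 0.000125). nas-9 fell in DMSO (-0.55 ± 0.07, adjusted p = 1.55e-06), and after rotenone it had 6.86 ± 0.177 CPM at 15 days and 7.17 ± 0.276 CPM at 5 days (adjusted p = 0.463).

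Of the genes of the pharyngeal grinder, nas-7 had 2.07, 1.24 and 1.39 CPM at 15 days and 6.29, 5.29 and 5.21 CPM at 5 days in DMSO, 3.56-fold lower (-1.83 ± 0.14, adjusted p = 4.96e-10). nas-6 had 1.01, 0.795 and 0.768 CPM at 15 days and 1.71, 1.42 and 1.32 CPM at 5 days in DMSO, 1.73-fold lower (adjusted p = 0.000571). After rotenone they were 3.91-fold and 2.43-fold lower. In both treatments all 6 muscle markers and all 8 gland markers of the pharynx fell as well, with median log2 differences of -1.41 and -1.66 in DMSO. The fall was not particular to the pharynx. In each treatment 8 of 8 intestine, 5 of 5 body wall muscle, 5 of 6 neuron and 5 of 7 epidermis markers were lower. Of all genes, 40.9% were lower in DMSO and 42.9% after rotenone. Germ line markers went mostly the other way, with 4 of 5 higher and 1 lower in DMSO and 5 of 5 higher after rotenone. Embryo markers split, with 3 higher and 1 lower of 5 in DMSO and 3 higher and 2 lower after rotenone. Of all genes, 35.2% were higher in DMSO and 36.6% after rotenone. The summed muscle markers of the pharynx were 164.4 to 182.0 CPM at 15 days and 389.4 to 407.0 CPM at 5 days in DMSO. The part of the tissue in the values of nas-6 and nas-7 was not tested. Among the other large falls in DMSO, nas-30 was 4.65-fold lower, with 0.781, 0.884 and 1.04 CPM at 15 days and 3.93, 4.84 and 3.89 CPM at 5 days (adjusted p = 1.56e-10), and nas-14 was 2.32-fold lower. nas-39 fell by 0.42 ± 0.06 on the log2 scale in DMSO and by 0.58 ± 0.05 after rotenone, while F38E9.1, which shares its exon bases, was higher by 0.61 and 0.69. nas-10, named after its values were seen, had the largest fall of the family in DMSO (-2.89 ± 0.26) at 0.226 ± 0.0702 CPM at 15 days and 1.72 ± 0.125 CPM at 5 days.

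Astacins known by other symbols were set beside the nas- genes. hch-1, the hatching enzyme that digests the egg shell (chromosome X, 14696411 to 14699977), had 18.1 CPM per kb after rotenone and 17.3 in DMSO at 15 days, below nas-11, and 53.5 after rotenone and 33.1 in DMSO at 5 days, above every nas- gene in the rotenone worms and below nas-20 in the DMSO worms. At 5 days it had 102, 100 and 109 CPM after rotenone, against 59.8, 59.6 and 72.8 CPM in DMSO, 1.62-fold higher with no overlap (0.69 ± 0.06, adjusted p = 5.54e-08). At 15 days it had 35.0 ± 0.767 CPM after rotenone and 33.5 ± 3.12 CPM in DMSO (adjusted p = 0.918). The embryo markers differed in the same direction at 5 days, with a summed level of 35.92 to 36.95 CPM after rotenone and 25.69 to 28.93 CPM in DMSO. Of all genes 21.3% were higher and 23.3% lower, and of the 5 embryo markers tested 3 were higher and none lower. None of the embryo markers was at 0. At 15 days their sum was 42.02 to 42.82 CPM after rotenone and 39.52 to 42.03 CPM in DMSO, whereas hch-1 fell with age in both treatments (-1.56 ± 0.07 after rotenone, -0.93 ± 0.07 in DMSO). Their part in the level of hch-1 was not tested. dpy-31, which removes the C-terminal propeptide of the cuticle collagen SQT-3 (chromosome III, 7202206 to 7207664), had 36.8, 35.8 and 33.6 CPM after rotenone and 38.3, 41.2 and 36 CPM in DMSO at 5 days. These overlapped, and its small difference (-0.12 ± 0.05, adjusted p = 0.0411) was not called with library totals (adjusted p = 0.992), or without DMSO library 1 or 2 or rotenone library 2 or 3 (adjusted p = 0.0782, 0.25, 0.0674 and 0.186). With age dpy-31 fell by 0.57 ± 0.05 in each treatment. toh-1, a tolloid homologue by name (chromosome III, 3804772 to 3809030), had 12.7 ± 0.403 CPM after rotenone and 13.5 ± 1.27 CPM in DMSO at 5 days and was not called (adjusted p = 0.255). The symbol toh-2 was looked up but was not found among the annotated genes of the count table.

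Genes of collagen processing and molting that were called at 5 days moved mostly in 1 direction. Of the 45 listed, all tested, 24 were higher, 2 lower and 19 not called after rotenone, with a median log2 difference of 0.24. These are 53.3% and 4.44% of the list, beside 21.3% and 23.3% of all genes. With library totals 28 and 0 were called, 62.2% of the list higher beside 37.9% of all genes, of which 10.3% were lower. The largest rise was that of ptr-4, a patched-related protein of the molt (0.69 ± 0.05, adjusted p = 1.11e-09), and dpy-7, a cuticle collagen, was higher by 0.65 ± 0.09. The 2 lower genes were nekl-2, a kinase of the molt (-0.29 ± 0.07), and bli-4, a proprotein convertase (-0.11 ± 0.03). Epidermal markers, which share dpy-7 and rol-6 with this list, split into 3 higher and 2 lower of 7 tested (4 and 1 with library totals), and their sum was 430.9 to 448.5 CPM after rotenone and 489.1 to 538.2 CPM in DMSO. At 15 days none of the 45 was called between rotenone and DMSO, and 7 had an unadjusted p under 0.05 in edgeR's test. The interaction was called in 21, negative in 20 of these and positive in 1. These are 44.4% and 2.22% of the list, beside 10.3% and 15.4% of all genes. With library totals 29 were negative and 0 positive, 64.4% negative beside 25% of all genes. With age in DMSO 16 were higher and 23 lower, which is 35.6% and 51.1% beside 35.2% and 40.9% of all genes. After rotenone 8 were higher and 26 lower, 17.8% and 57.8% beside 36.6% and 42.9% of all genes. With RLE these were 15 and 25, 33.3% and 55.6% beside 40.5% and 39.2% of all genes.

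The other metzincins and their inhibitors gave 7 higher and 6 lower of 17 at 5 days after rotenone, 41.2% and 35.3% beside 21.3% and 23.3% of all genes. With library totals they gave 9 and 2, where 37.9% of all genes were higher and 10.3% lower. Their lower members were led by timp-1, an inhibitor of metalloproteases (-0.49 ± 0.07, adjusted p = 7.24e-06), and the higher ones by zmp-2, a matrix metalloprotease (0.43 ± 0.10). In DMSO 4 were higher and 11 lower with age, 23.5% and 64.7% beside 35.2% and 40.9% of all genes. The intestinal cathepsins, digestive proteases of other catalytic types, had 1 higher and 10 lower of 11 at 5 days after rotenone. These are 9.09% and 90.9%, beside 21.3% and 23.3% of all genes. Their median was -0.62, and the largest fall was in cpr-5 (-1.30 ± 0.05). All 11 fell with age in both treatments, where 40.9% of all genes were lower in DMSO and 42.9% after rotenone. The summed intestine markers, none of which is a cathepsin, were 495.2 to 518.2 CPM after rotenone and 528.7 to 555.8 CPM in DMSO at 5 days, with 1 of 8 markers higher and 2 lower, or 4 and 2 with library totals.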

How the data were processed

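RNA-seq of 12 whole-worm libraries was analysed from the count table that the authors deposited, with whole-number counts per gene that were not normalized. Per the submitters' processing notes, reads were handled with featureCounts 1.4.6-p4, the aligner STAR 2.4.1d and bcl2fastq 1.8.3 on WBcel235; their settings, strand use and treatment of reads with several matches are not given in the sources used here. The authors' RPKM table was not used, because library totals are repeated down its columns. Names, positions and exon lengths came from Ensembl release 115, in which 46449 identifiers of the table were found and 299 were not.

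Counts were fitted in R 4.3.3 with edgeR 4.0.16: filterByExpr with a minimum count of 10 (17166 genes kept), TMM factors, and 1 quasi-likelihood model of 4 groups over the 12 libraries. Quasi-likelihood F tests gave 5 contrasts, with Benjamini-Hochberg adjustment over all genes tested and calls at an adjusted p under 0.05. Levels are CPM scaled with TMM factors, and a standard error is that of the log2 difference. The biological coefficient of variation was 3.41%. Scripts were tested on simulated data. Pairs of replicates differed by a mean chi-square of 3.04 to 13.2 per gene, so no library was a copy of another.

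Alternatives were RLE size factors, library totals, no filter, at least 1 CPM in at least 3 libraries, DESeq2 1.42.0, only the libraries compared, leaving out each library, and a block. The block is the sequencing lane: the labels give each replicate number a lane of its own, shared by 1 library of each group. Deviations from group means correlated at -0.0464 to 0.182 between libraries of the same lane and at -0.188 to 0.116 between lanes.

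Genes named are those called in a rotenone contrast or the interaction, the 6 largest rises and falls with age in DMSO at a mean of at least 1 CPM, those with a known role, the astacins of other symbols and the 5 highest per length. The members, lists and markers were chosen with earlier results of these data known, so list counts are descriptions.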

Additional observations from a re-analysis of the deposited data

Results flagged for a closer look

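The rotenone difference (log2) at 15 days minus that at 5 days passed the test of the difference itself in 6 nas- genes and in hch-1 (edgeR's quasi-likelihood test, adjusted over all genes), where 25.7% of all genes did. It was -0.64 ± 0.10 for hch-1 (adjusted p = 9.52e-05), from 0.06 at 15 days and 0.69 at 5 days. nas-38 gave -0.72 ± 0.17 (adjusted p = 0.00369), from -0.18 at 15 days and 0.54 at 5 days. nas-9 gave 0.48 ± 0.11 (adjusted p = 0.00257), from -0.06 at 15 days and -0.54 at 5 days. These 3 kept the call under all 18 alternatives. The value was -0.60 ± 0.18 for nas-28 (adjusted p = 0.0189), which lost the call under DESeq2 only (adjusted p = 0.0861).

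The remaining calls were lost in several alternatives. nas-11 gave 0.27 ± 0.09 (adjusted p = 0.0309) and was called in 11 of 18 alternatives, not without DMSO 1 or 2 or rotenone 3 of 5 days, nor without DMSO 2 or 3 or rotenone 2 of 15 days (0.22 to 0.27, adjusted p = 0.0509 to 0.0826), nor with library totals (0.14, adjusted p = 0.272). nas-14 gave -0.74 ± 0.24 (adjusted p = 0.0313) and was called in 10 of 18. It was lost without DMSO 1 or 2 or rotenone 1 or 3 of 5 days, and without DMSO 1 or rotenone 2 or 3 of 15 days; without DMSO library 1 of 15 days it was -0.52 (adjusted p = 0.147), and DESeq2 gave -0.71 (0.0524). nas-15 gave -0.69 ± 0.25 (adjusted p = 0.0479) and was called in 7 of 18. Among the removals of a library, those of rotenone 1 of either age and of DMSO 3 of 15 days left it called; without DMSO library 1 of 15 days it was -0.51 (adjusted p = 0.177). RLE gave -0.66 (0.0533) and DESeq2 -0.68 (0.0689).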

How the results depend on the processing

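Of 1662 recomputed values of the 24 named genes tested, 1535 stayed on the same side of the threshold, and no called value changed its sign; values that were not called did change sign in places. At 5 days, rotenone against DMSO gave 7 nas- genes higher with RLE and 2 with DESeq2, and 3 lower with library totals. Of all genes, 18.9% were higher with RLE and 10.3% lower with library totals. At 15 days 1 gene was lower without the filter. The interaction gave 1 higher and 9 lower with library totals, where 5.47% and 25% of all genes were called, and 1 lower with DESeq2. The causes were not tested. With 1 library left out, calls at 5 days were 5 to 7 higher and 5 lower, at 15 days 0, with age in DMSO 5 higher and 19 to 21 lower, after rotenone 5 to 7 and 21 to 22, and in the interaction 1 to 3 higher and 2 to 6 lower. In the interaction, 1 was higher without DMSO 1 or 2 or rotenone 3 of 5 days, or DMSO 2 or rotenone 2 of 15 days, and 2 were lower without rotenone 3 of 5 days, or DMSO 1 or rotenone 2 or 3 of 15 days. With the replicate block (sequencing lane) the calls were 9 higher and 5 lower at 5 days, 0 at 15 days, 5 and 20 with age in DMSO, 6 and 22 after rotenone, and 3 and 5 in the interaction. The block ended the calls of nas-1 (adjusted p = 0.0537) and nas-4 (0.0524) at 5 days, added nas-20 (0.0371) and nas-3 (0.0221) to the interaction, and changed no other call. The tested nas- genes had 175 to 25675 counts over the 12 libraries, and standard errors reached 0.49 in the lowest, where differences near that size were not detectable at this depth.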
